A study of Drosophila melanogaster with 24 samples.

Results

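The maternal to zygotic transition was followed in *Drosophila* embryos that lack ACF1 (*AcfC*), by comparing single *AcfC* embryos at Bownes Stage 8 (around 4 h of age, after zygotic genome activation, ZGA) with single *AcfC* embryos at Bownes Stage 3 (around 1 h of age, before ZGA). Transcriptomes were measured by RNA-seq of rRNA-depleted total RNA, 1 embryo per library. All 6 Stage 8 embryos were used, and 5 of the 6 Stage 3 embryos, since the study set aside Stage 3 replicate 2 as improperly staged. The members are all protein-coding genes with at least 1 count in these 11 embryos, 11680 of the 13728 protein-coding genes of the count table and of the 12071 with counts in any of the series' 24 embryos. Genes with 0 counts in every Stage 3 embryo are included. *AcfC* is a single CRISPR/Cas9 deletion line, backcrossed for 8 generations to the wild-type strain Oregon-R (*OrR*), and all 11 embryos carry the deletion. The wild-type embryos set beside them were *OrR* at the same stages and ages, 6 at Stage 3 and 6 at Stage 8. Each embryo is a different animal, whose parents' identity is not given in the labels.

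Before ZGA a fly embryo runs on RNA and protein that the mother loaded into the egg, and the nuclei divide in a common cytoplasm without much transcription of their own. During the transition a large part of the maternal RNA is degraded, by factors that come from the mother and later from the zygote, while the zygotic genome is switched on with the help of pioneer factors such as Zelda. At Stage 8 the embryo has gastrulated, the germ band is extending, segments have been specified and the first neural precursors are being chosen. ACF1 is the signature subunit of the nucleosome sliding complexes ACF and CHRAC, which pair it with the ATPase ISWI.

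The deletion was made with a pair of guide RNAs near the ends of *Acf*, shown here because the remaining *Acf* reads have to be read against them. Their targeting sequences, 5′ to 3′ and all in lower case since no base is singled out, are both 20 nt long with a GC content of 55% and 65%.
Acf1_crispr_LHS6: ttagcgcagcgtccacctaa
Acf1_crispr_RHS2: gggcgcctaccagctaaacg

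*Acf* (FBgn0027620) lies on the plus strand of chromosome 3R, from 31793981 to 31799799 in the BDGP6 assembly, and its annotated span overlaps *CG42233*. By the study's methods the deletion takes most of the gene and leaves its UTRs, and reads on the remaining sequence are still counted. Levels are given as CPM, the counts of a gene scaled to the protein-coding total of its embryo, a share of reads that is not divided by gene length. In the 5 *AcfC* Stage 3 embryos (replicates 1, 3, 4, 5 and 6, the order used throughout) *Acf* was at 133, 128, 139, 102 and 127 CPM, and in the 6 Stage 8 embryos (replicates 1 to 6) at 39.5, 59.4, 65.9, 39.9, 50.3 and 45.4 CPM. Wild-type embryos had a median of 682 CPM (623 to 705) at Stage 3 and a median of 470.4 CPM (465 to 497) at Stage 8. Every *AcfC* embryo lay below every wild-type embryo of its stage. The remaining *Acf* reads fell between the stages with a log2 fold change of −1.19 (SE 0.14, adjusted *P* = 1.56e-06). SE here and below is the size of the change divided by the square root of the *F* statistic of the edgeR test. It is an approximation that was not estimated directly, least sure where a stage had few counts.

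The 5 Stage 3 embryos had 7450454 to 11422235 counts, 4413500 to 7418867 of them on protein-coding genes. The 6 Stage 8 embryos had 4213692 to 11614741 and 2030997 to 5689678. rRNA genes took 32.1 to 38.1% of the counts at Stage 3 and 43.2 to 52.7% at Stage 8. No 2 embryos of a stage agreed within counting error (chi-square per degree of freedom 2.11 to 11.5 at Stage 3 and 8.11 to 24.4 at Stage 8), and each was counted as 1 replicate. Embryos differed more at Stage 8 than at Stage 3, with a biological coefficient of variation of 0.241 against 0.107. At Stage 3, replicates 1 and 4 held more early zygotic RNA than the others. The summed level of 47 listed zygotic genes was 133 and 111 CPM there and 9.52, 15.9 and 6.61 CPM in replicates 3, 5 and 6, against 4.34 to 6.15 CPM in 5 wild-type embryos, 133 CPM in the other one and 187 CPM in the replicate set aside. These genes were kept only where the wild-type Stage 3 mean was under 5 CPM. That choice partly fixes the low wild-type sums, so the genotypes cannot be compared by them. At Stage 8, replicates 4, 5 and 6 stood apart on 41, 90 and 66 of 6413 genes (over 1.5 on the log2 scale from the median embryo and over 1 from the nearest one), and replicates 1 to 3 on 1 to 8. Stage 8 replicate 4 was also the smallest library, and replicates 4 to 6 of each group reuse some sequencing indices of replicates 1 to 3. Counts and medians of the gene lists are also given without these embryos where that moved them most.

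Most of the transcriptome differed between the stages in *AcfC*. Of the 11680 genes, 9348 had counts in at least 5 of the 11 embryos and were tested, and 2332 were not. The quasi-likelihood test of edgeR called 8016 genes at an adjusted *P*-value under 0.1 (85.8% of those tested), 4895 of them higher (52.4%) and 3121 lower (33.4%) at Stage 8. In 3335 genes (35.7%) every Stage 8 embryo lay above every Stage 3 embryo, in 2871 (30.7%) every one lay below, and 1842 genes were called although the stages overlapped. By fitted size, large changes were mostly increases. By more than 1 on the log2 scale 3619 genes rose (38.7%) and 1987 fell (21.3%), by more than 3 these were 2374 and 618, and by more than 5 they were 1400 and 221. Of the genes called higher 934 had no Stage 3 count, and of those called lower 9 had no Stage 8 count. Their fitted sizes depend on the small prior count that edgeR adds, so the counts by size lean towards increases. The same holds in part for genes with only a few counts in a stage, and these were not set at a bound. The median change was 2.82 among the higher genes, −1.38 among the lower ones and 0.47 among all genes tested. With genes that had no count in a whole stage set at the bound that 3 counts per embryo allow, these medians were 1.62, −1.37 and 0.36. The study added spike-in RNA to each embryo, but the gene counts used here hold none of it. All changes are therefore relative to the other protein-coding genes of an embryo. Less of an RNA per embryo cannot be told apart from more of the others. The median of all genes was 0.61 with RLE, 0.78 with upper-quartile and 0.35 with total-count scaling. Without Stage 8 replicates 4, 5 and 6 the test called 6393 genes, 3312 higher and 3081 lower, and the median of all genes was 0.08. The limit of 5 embryos with counts was kept there, so that no gene without a Stage 3 count could pass. In that fit 7676 genes were tested, and its share of higher genes and its median are not over the same genes. Without Stage 3 replicates 1 and 4 the test called 7727 and the median was 0.50. Restricted to replicates 1 to 3 of each stage, less the omitted one, it called 7356, and restricted to replicates 4 to 6 it called 7186.

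**Figure D1:**
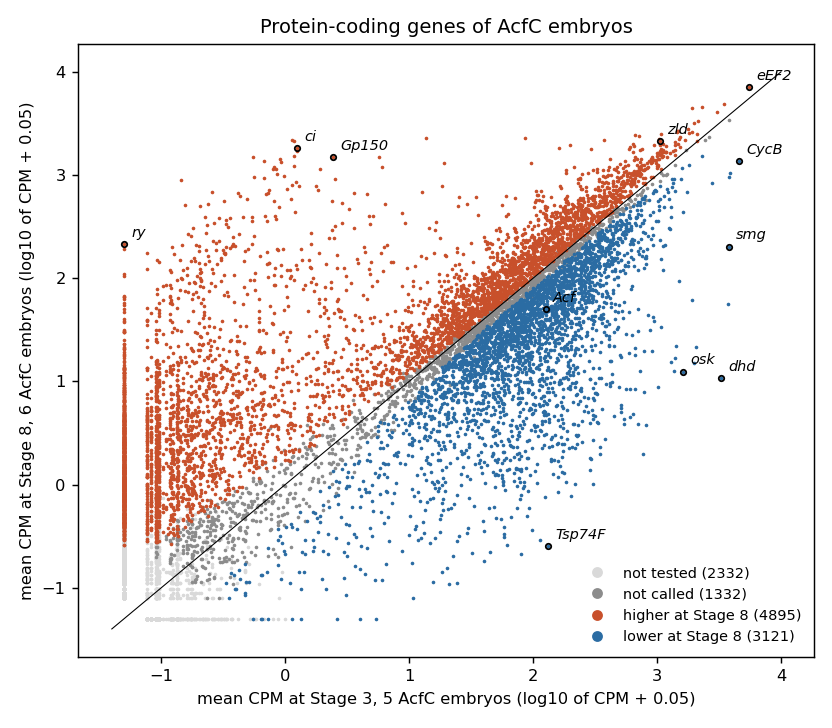
Mean level of each of the 11680 protein-coding genes in the 5 *AcfC* Stage 3 embryos (x axis) and the 6 *AcfC* Stage 8 embryos (y axis), as log10 of CPM + 0.05. Points are coloured by the edgeR call (4895 higher, 3121 lower, 1332 not called, 2332 not tested) and the line marks equal levels, with *ry* at the left edge far above it and *osk*, *dhd* and *Tsp74F* far below.

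A set of genes had no count in any Stage 3 embryo and counts in every Stage 8 embryo. Of the 2590 genes with 0 counts in all 5 Stage 3 embryos, 617 had counts in all 6 Stage 8 embryos, and a further 646, 404, 320, 286 and 317 had counts in 1, 2, 3, 4 and 5 of them. All 617 were among the genes called higher, which their choice nearly fixes. Their mean Stage 8 level was mostly low: 60 were at 10 CPM or more, 426 between 1 and 10 CPM, and 131 below 1 CPM, with a median of 2.18 CPM. Among them 20.3% were intronless and the median gene span was 1908 nt, against 11% and 2753.5 nt among all genes tested, and 351 carry only a CG number. In the replicate set aside, 247 of the 617 had counts, 29 of them more than 3, and with that embryo included 370 genes met the rule. Without Stage 8 replicates 4, 5 and 6 it was met by 993. With every embryo thinned to 2030997 counts it was met by 699.

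The highest read share among them was that of *ry*, the gene of xanthine dehydrogenase, an enzyme of purine breakdown and eye pigment synthesis. It had 0 counts in each of the 5 Stage 3 embryos and 200.2, 193, 261, 222, 293 and 118 CPM in Stage 8 replicates 1 to 6, at least 382-fold above the level of 3 counts per embryo (0.562 CPM), with an adjusted *P* of 4.21e-09. *byn*, the T-box factor that specifies the hindgut, came next with 159, 176, 169, 553, 1.94 and 95.5 CPM. Replicate 5 was almost without it and replicate 4 far above the rest. *comm2*, a relative of the axon guidance gene *comm*, was steadier at a median of 105 CPM (93.5 to 139). The serotonin receptor gene *5-HT2A* was at 61.9, 117, 125, 88.1, 52.8 and 177 CPM. Both were without a count before ZGA in every embryo, as were the genes that follow.

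Transcription factors of particular tissues made up most of the other named genes. *gcm*, which drives glial and haemocyte fate, stood at 30.4, 25.2, 37.3, 44.8, 192 and 61.4 CPM, with replicate 5 alone above 100 CPM. *Dll*, which marks limb primordia, was at 76.5, 95.2, 55.5, 35, 74.7 and 53 CPM, with replicate 4 lowest. *eya*, a cofactor of eye and mesoderm development, was at 54.3, 49.8, 43.8, 16.2, 59.2 and 75.2 CPM, again with replicate 4 lowest. The heart and mesoderm factor *tin* was at 67.9, 56.4, 83.7, 43.3, 26.8 and 94.8 CPM, and its lowest embryo was replicate 5. *sob*, a zinc finger gene of the odd-skipped family, reached a median of 57.6 CPM (27.7 to 77.7). The uncharacterised genes *CG13894*, *CG13454* and *CG12420* reached a median of 65.8 CPM (28.1 to 112), a median of 55.3 CPM (45.3 to 66.7) and a median of 49.4 CPM (36.7 to 55.7). For the 12 genes the lower bounds on the increase ran from 84.4-fold for *CG12420* to 382-fold for *ry*. *byn*, *gcm* and *CG12420* overlap another annotated gene, whose reads the libraries, which do not mark strand, could not keep apart.

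**Figure D2:**
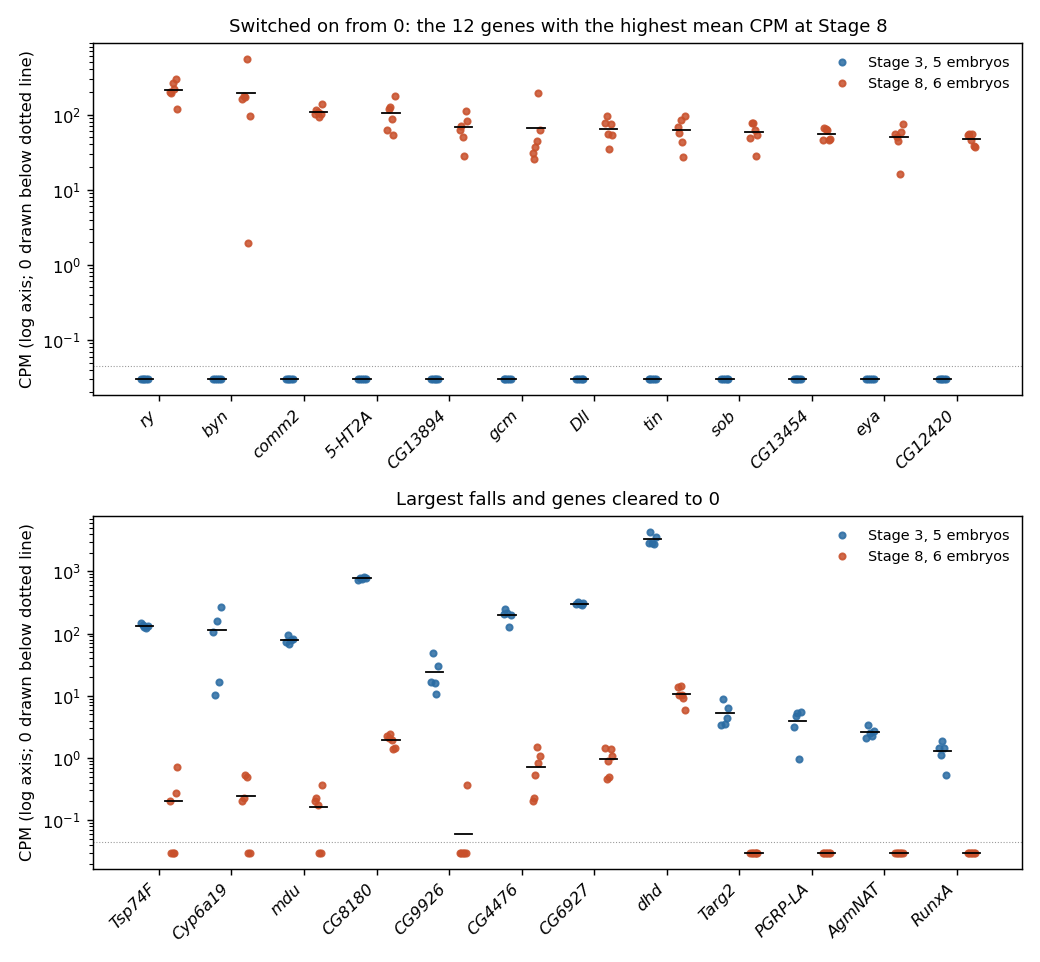
Level in CPM (log axis, 0 drawn below the dotted line) of each *AcfC* embryo, 5 at Stage 3 (blue) and 6 at Stage 8 (orange), with bars at the means. Upper panel, the 12 genes without a Stage 3 count that had the highest Stage 8 mean, of which *byn* and *gcm* spread the most; lower panel, the 8 largest falls and 4 genes without a count at Stage 8.

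Other genes rose steeply from a measurable level. Among genes with a mean of at least 10 counts per Stage 3 embryo, the largest rise was that of *Gp150*, a leucine-rich repeat membrane protein of the Notch pathway. It went from 1.68, 2.49, 5.99, 0.159 and 1.48 CPM at Stage 3 to 1652, 1475, 1448, 1401, 1316 and 1677 CPM at Stage 8, a log2 fold change of 9.52 (SE 0.34, adjusted *P* = 5.77e-12). The filamin-type gene *jbug* went from 1.68, 4.08, 2.48, 1.59 and 2.43 CPM to a median of 924 CPM (748 to 1020), a log2 fold change of 8.68 (SE 0.17, adjusted *P* = 2.04e-14). The zinc finger gene *l(3)neo38* went from 6.29, 7.25, 7.22, 1.91 and 5.39 CPM to a median of 1451 CPM (1396 to 1631), a log2 fold change of 8.22 (SE 0.22, adjusted *P* = 2.39e-13). In all 3 genes the stages lay far apart and the Stage 8 embryos lay close together.

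Secreted and adhesion molecules followed. *ImpL2*, which binds insulin-like peptides, stood at 0.838, 1.59, 8.26, 0.635 and 0.404 CPM before ZGA and 445, 869, 301, 578, 568 and 616 CPM after it, a log2 fold change of 8.14 (SE 0.53, adjusted *P* = 3.22e-09). *Ten-a*, a teneurin of synaptic matching, rose from 6.71, 4.3, 4.75, 4.6 and 9.3 CPM to 1238, 758, 664, 1133, 1680 and 1622 CPM, a log2 fold change of 7.72 (SE 0.34, adjusted *P* = 4.74e-11). The N-cadherin gene *CadN* rose from 3.14, 1.81, 4.54, 1.59 and 3.1 CPM to 391, 486, 280.3, 298, 1058 and 689.6 CPM, a log2 fold change of 7.67 (SE 0.46, adjusted *P* = 1.44e-09). Both cadherin and teneurin were highest in Stage 8 replicate 5, and *ImpL2* at Stage 3 was highest in replicate 4. *sli*, the midline repellent of axons, rose from 9.01, 20.4, 8.05, 15.7 and 14.6 CPM to a median of 2298 CPM (1939 to 2652), a log2 fold change of 7.51 (SE 0.21, adjusted *P* = 5.1e-13). The uncharacterised *CG3036* rose from 3.35, 4.08, 3.51, 3.33 and 3.5 CPM to a median of 668 CPM (522 to 796), a log2 fold change of 7.67 (SE 0.15, adjusted *P* = 1.82e-14). Of these 8 genes, 6 overlap another annotated gene.

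Maternal RNAs fell over a wide range. Among genes with a mean of at least 100 counts per Stage 3 embryo, the largest fall was that of the tetraspanin gene *Tsp74F*, from 149, 136, 127, 123 and 129.9 CPM to 0.206, 0, 0, 0, 0.277 and 0.726 CPM, a log2 fold change of −9.26 (SE 0.27, adjusted *P* = 6.07e-13). *dhd*, the thioredoxin that acts on protamines of sperm chromatin at fertilisation, had the largest read share of the 8 named genes, at 2851, 4260, 2868, 2762 and 3622 CPM before ZGA and 14, 10.3, 14.6, 10.3, 9.13 and 5.81 CPM after it, a log2 fold change of −8.07 (SE 0.20, adjusted *P* = 1.42e-13). It kept a measurable level in every embryo. *CG8180* went from 724, 795, 741, 802 and 792 CPM to a median of 2.02 CPM (1.38 to 2.46), a log2 fold change of −8.44 (SE 0.11, adjusted *P* = 2.1e-15). *CG6927* went from 302, 324, 297, 290.0 and 306 CPM to a median of 0.984 CPM (0.459 to 1.44), a log2 fold change of −8.10 (SE 0.15, adjusted *P* = 1.46e-14). Both varied little at Stage 3. *mdu*, *CG4476* and *CG9926* had log2 fold changes of −8.53, −8.18 and −8.32, and *CG9926* had counts in 1 of 6 Stage 8 embryos. The cytochrome P450 gene *Cyp6a19* differed widely before ZGA, at 106, 10.4, 162, 16.7 and 269.7 CPM, and was at 0.206, 0.229, 0.527, 0.492, 0 and 0 CPM after it. It overlaps its relative *Cyp6a9*, so that the share of reads from each is uncertain.

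Clearance to 0 counts was rare. Of the 270 genes with 0 counts in all 6 Stage 8 embryos, 184 had counts in 1 Stage 3 embryo and 9 in all 5. All 9 were low before ZGA. *Targ2* was at 3.35, 8.84, 3.51, 4.44 and 6.47 CPM at Stage 3, a fall of at least 6.11-fold against 3 counts per embryo (0.871 CPM at Stage 8). *PGRP-LA*, a peptidoglycan recognition protein of the immune system, was at 3.14, 4.76, 5.37, 0.952 and 5.39 CPM, a fall of at least 4.5-fold. *AgmNAT*, an N-acetyltransferase, was at 2.1, 3.4, 2.48, 2.22 and 2.7 CPM, a fall of at least 2.96-fold. Levels of the rest lay near the limit of detection at Stage 3. *RunxA*, a Runx family factor, was at 1.28 ± 0.49 CPM, *CG15093* at 1.08 ± 0.208 CPM and *CG4998* at 0.673 ± 0.571 CPM (mean ± SD, n = 5). *tut*, *CG15611* and *CG15879*, named after their values were seen because the count is small, were at 0.593 ± 0.359, 0.582 ± 0.416 and 0.503 ± 0.237 CPM. RNAs of higher level kept some counts: of the 121 genes that dropped over 5 log2 units from a mean of at least 100 CPM, 116 had counts in every Stage 8 embryo. Without Stage 8 replicates 4, 5 and 6 the genes cleared to 0 numbered 20, and without Stage 3 replicates 1 and 4 they numbered 14.

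By read share, the libraries were led at Stage 3 by *eEF2*, *CycB*, *Hsp83*, *tral* and *smg* and at Stage 8 by *eEF2*, *kis*, *alphaTub84B*, *Df31* and *Act5C*. The elongation factor gene *eEF2* was first at both stages, at 5806, 5128, 6224, 5172 and 5141 CPM before ZGA and 7777, 8023, 6653, 8220, 5993 and 5986 CPM after it, a log2 fold change of 0.50 (SE 0.11, adjusted *P* = 0.00095). Its stages overlapped. *CycB*, the mitotic cyclin, fell from 4905, 4193, 4885, 4587 and 4378 CPM to a median of 1392 CPM (1162 to 1540), a log2 fold change of −1.62 (SE 0.08, adjusted *P* = 1.91e-10). *smg*, whose protein Smaug directs the deadenylation of maternal RNA, fell from 3914, 3570, 3962, 3731 and 3683 CPM to a median of 200.5 CPM (169.6 to 239), a log2 fold change of −4.09 (SE 0.10, adjusted *P* = 8.51e-14). *tral*, a component of maternal RNP granules, fell from 3943, 3793, 4064, 3669 and 3658 CPM to a median of 984 CPM (815 to 1095), a log2 fold change of −1.85 (SE 0.09, adjusted *P* = 1.41e-10). The Hsp90 gene *Hsp83* was more variable, at 3124, 4336, 3007, 4649 and 4140 CPM before ZGA and 608, 1244, 784, 1059, 1234 and 1313 CPM after it, a log2 fold change of −1.76 (SE 0.18, adjusted *P* = 6.46e-07). The genes that led at Stage 8 were already abundant at Stage 3 and rose by less. *Df31*, a chromatin decondensation factor, rose from 1995, 1956, 2014, 1713 and 1892 CPM to a median of 4400 CPM (4138 to 4909), a log2 fold change of 1.34 (SE 0.06, adjusted *P* = 9.69e-11). *kis*, a CHD-family remodeler, was at 3483 ± 185 and 4890 ± 357 CPM, *alphaTub84B* at 2319 ± 172 and 4558 ± 222 CPM, and the cytoplasmic actin gene *Act5C* at 3020 ± 146 and 4110 ± 159.6 CPM (mean ± SD, n = 5 and 6).

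Gene lists were then read by role, each against the 85.8% of all tested genes that were called and their median of 0.47. Where most members had few Stage 3 counts, the fitted sizes and the median of a list depend on the prior count. The order of such lists by median is therefore not a measured order. Of 19 tested maternal axis determinants, 17 fell and 2 rose, with a median of −3.79. *osk*, which assembles the germ plasm, had 1646, 1717, 1718, 1550 and 1410 CPM at Stage 3 and 14, 11.9, 15.1, 17.2, 6.08 and 9.8 CPM at Stage 8, a log2 fold change of −6.90 (SE 0.18, adjusted *P* = 2.1e-13). *nanos*, the posterior determinant, fell from 868, 889, 852, 832 and 942 CPM to 18.7, 27.5, 55.2, 53.2, 2.49 and 29.8 CPM, a log2 fold change of −4.71 (SE 0.41, adjusted *P* = 8.68e-08). Both were lowest at Stage 8 in replicate 5. The anterior determinant *bcd* fell from 179.6, 182, 229, 201 and 231 CPM to a median of 2.06 CPM (1.38 to 3.45), a log2 fold change of −6.47 (SE 0.18, adjusted *P* = 3.64e-13). *Tl*, the receptor of the dorsoventral pathway, fell less, from a median of 1043 CPM (971 to 1125) to a median of 213 CPM (193 to 299.7), a log2 fold change of −2.03 (SE 0.12, adjusted *P* = 1.65e-09). The genes that rose were the IκB-type inhibitor *cact*, by 0.39 (SE 0.12, adjusted *P* = 0.00901), and the RNA-binding *stau*, by 0.37 (SE 0.06, adjusted *P* = 9.79e-05).

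Genes of egg activation and RNA clearance mostly fell, with 14 of 16 tested genes lower, 1 higher and 1 not called (median −2.04). The translational repressor *bru1* fell from 2194, 2097, 2118, 1912 and 1930 CPM to 17.5, 22, 18.6, 38.9, 13.8 and 18.5 CPM, a log2 fold change of −6.50 (SE 0.20, adjusted *P* = 1.03e-12). *orb*, which promotes polyadenylation in the oocyte, *gnu*, a regulator of the PNG kinase, and *wisp*, the poly(A) polymerase of the egg, fell by 6.01, 6.38 and 3.87 on the log2 scale. *me31B*, a DEAD-box repressor of maternal RNA, fell less, from a median of 2788 CPM (2643 to 2932) to a median of 818 CPM (667 to 1017), a log2 fold change of −1.62 (SE 0.10, adjusted *P* = 1.27e-09). *AGO1*, the microRNA effector, was the gene that rose, by 0.69 (SE 0.07, adjusted *P* = 4.16e-07). *cup* and *BicC* had 0 counts in all 24 embryos, and both overlap other genes, so that nothing was measured on them.

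Germ plasm and piRNA genes fell in 10 of 12 cases (median −1.70), and under upper-quartile scaling in 8. *vas*, the helicase of the germ line, went from 274, 413, 296, 298 and 364 CPM to 8.23, 7.34, 10.0, 5.42, 7.47 and 6.9 CPM, a log2 fold change of −5.26 (SE 0.15, adjusted *P* = 3.64e-13). *gcl*, which is needed to form pole cells, went from a median of 463 CPM (445 to 478) to a median of 47.3 CPM (41.1 to 55.9), a log2 fold change of −3.14 (SE 0.08, adjusted *P* = 2.57e-13). *tud*, a scaffold of germ granules, fell less, from a median of 615 CPM (462 to 726) to a median of 279 CPM (249.6 to 324), a log2 fold change of −0.88 (SE 0.11, adjusted *P* = 6.1e-06). *zuc*, a nuclease of piRNA biogenesis, was higher by 0.71 (SE 0.13, adjusted *P* = 0.000139), and 1 gene was not called. *pgc*, whose product silences transcription in pole cells, was still at 15.4, 18.6, 27.2, 45.8, 1.11 and 13.4 CPM at Stage 8, lowest in replicate 5.

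Genes of meiosis and the egg cell cycle divided into 7 that fell, 4 that rose and 1 not called (median −1.27). *alphaTub67C*, a maternal tubulin, fell from 499.6, 792, 497, 566 and 647 CPM to a median of 4.15 CPM (2.54 to 7.39), a log2 fold change of −6.98 (SE 0.19, adjusted *P* = 3.52e-13). *mtrm* and *twe*, regulators of the meiotic divisions, fell by 6.47 and 5.52 on the log2 scale. The mitotic cyclin gene *CycB3* and *fzy* were among the 4 that rose. *CycB3* went from a median of 745 CPM (698 to 764) to a median of 1461 CPM (1229 to 1555), a log2 fold change of 1.07 (SE 0.07, adjusted *P* = 4.79e-09), and *fzy*, an activator of the anaphase-promoting complex, from a median of 302 CPM (279 to 316) to a median of 630.5 CPM (617 to 656), a log2 fold change of 1.20 (SE 0.06, adjusted *P* = 2.61e-10). Of 16 genes of the blastoderm cell cycle, 12 fell, 3 rose and 1 was not called (median −0.61), and under upper-quartile scaling 9 fell. Without Stage 8 replicates 4, 5 and 6 the median was −1.01, with 13 of 15 lower. *CycA* changed by −0.47 (SE 0.10, adjusted *P* = 0.000412), the mitotic kinase *Cdk1* by 0.81 (SE 0.07, adjusted *P* = 3.89e-08) and *trbl*, a brake on mitosis, by 2.34 (SE 0.18, adjusted *P* = 2.05e-08).

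Genome activation factors did not share a direction, with 4 higher and 2 lower. *zld*, the pioneer factor, rose from 1065, 991, 1114, 1110 and 1016 CPM to 2434, 1822, 1775, 1822, 2345 and 2642 CPM, a log2 fold change of 1.14 (SE 0.11, adjusted *P* = 2.63e-07). *grh*, an epidermal pioneer factor, rose from 0.419, 2.04, 0.206, 0.635 and 0.674 CPM to a median of 387 CPM (267 to 448), a log2 fold change of 9.02 (SE 0.27, adjusted *P* = 1.03e-12). *Stat92E* and *Clamp* changed by −0.53 (SE 0.08, adjusted *P* = 1.57e-05) and −0.45 (SE 0.09, adjusted *P* = 0.000244). Among the X counting and sex determination genes 10 of 11 rose and 1 fell (median 2.84, and 4.40 without Stage 3 replicates 1 and 4). *Sxl*, which is switched on in females, was at 219, 267, 229, 217 and 265 CPM at Stage 3 and 1172, 340.0, 314, 1234, 1297 and 1171 CPM at Stage 8. *msl-2*, part of the male dosage compensation complex, was at 8.17, 9.29, 6.19, 6.51 and 6.87 CPM at Stage 3 and 73.2, 276, 316, 52.7, 62 and 81 CPM at Stage 8. Stage 8 replicates 2 and 3 were low in the first and high in the second, while the Stage 3 embryos lay close together in both.

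Of 8 tested cellularization genes 4 rose, 2 fell and 2 were not called, and their median of −0.16 turned to 0.14 under upper-quartile scaling and to 0.78 without Stage 3 replicates 1 and 4, where 5 rose. *slam*, needed for the furrow membrane, fell from a median of 300.0 CPM (249 to 322) to a median of 22 CPM (13.5 to 31), a log2 fold change of −3.61 (SE 0.17, adjusted *P* = 1.22e-10). The septin gene *pnut* rose from a median of 286 CPM (261 to 338) to a median of 612 CPM (561 to 629), a log2 fold change of 1.17 (SE 0.08, adjusted *P* = 3.79e-09). *nullo*, which stabilises the furrows, was at 4.19, 0, 4.95, 0.635 and 0 CPM at Stage 3 and 0.617, 0, 0.351, 1.48, 0.277 and 0.363 CPM at Stage 8 (adjusted *P* = 0.112). *bnk*, which times their contraction, was at 7.96, 0, 8.88, 0.793 and 0 CPM at Stage 3 and 1.44, 1.83, 2.46, 0.492, 1.38 and 0 CPM at Stage 8 (adjusted *P* = 0.279). Neither was called, and both were highest in Stage 3 replicates 1 and 4. Without these embryos the change was 1.06 for *nullo* and 2.34 for *bnk*, against −1.91 and −1.20 with them.

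Patterning genes rose almost without exception. Of 11 gap and terminal genes 10 rose and *hb*, which has a maternal transcript, fell by 1.31 on the log2 scale (median of the list 8.09). *Kr* rose from 1.47, 0.68, 1.45, 0.476 and 0 CPM to 182, 178, 183, 71.4, 179 and 354 CPM, a log2 fold change of 8.09 (SE 0.50, adjusted *P* = 2e-09), with replicate 4 lowest and replicate 6 highest. *slp1* rose from a median of 0.159 CPM (0 to 5.03) to a median of 173 CPM (141 to 218), a log2 fold change of 6.85 (SE 0.54, adjusted *P* = 3.19e-08). *knrl* had 0 counts in 4 of the 5 Stage 3 embryos and 113, 126, 136, 164, 472 and 51.2 CPM at Stage 8, a log2 fold change of 11.57 (SE 0.96, adjusted *P* = 4.84e-08). With almost no Stage 3 counts, the fitted size of *knrl* depends on the prior count. Replicate 5 held the most *knrl* by far.

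All 8 pair-rule genes rose, with a median of 7.92, and of 10.94 without Stage 3 replicates 1 and 4. *opa*, which times the change from double to single segment periodicity, rose from 0.419, 0.227, 0, 0.159 and 0.135 CPM to 520.5, 771, 495, 689, 385 and 306 CPM, a log2 fold change of 11.44 (SE 0.43, adjusted *P* = 1.02e-11). *prd* rose from 0.838, 0, 0.619, 0 and 0.135 CPM to 137, 306, 199, 367, 184 and 39.6 CPM, a log2 fold change of 9.47 (SE 0.76, adjusted *P* = 3.7e-08). *odd* rose from 2.52, 0, 0.826, 0 and 0 CPM to 143, 214, 181, 295, 132 and 104 CPM, a log2 fold change of 8.31 (SE 0.56, adjusted *P* = 5.47e-09). The Stage 8 embryos differed several-fold in these genes, with replicate 6 lowest in all 3. All 8 tested segment polarity genes rose as well, with a median of 10.02, the highest of the 30 lists with all 11 embryos. Without Stage 3 replicates 1 and 4 it was 10.05, below that of the pair-rule genes. *ci*, the transcription factor of the Hedgehog pathway, rose from 0.419, 3.4, 0.826, 0.793 and 0.539 CPM to 1968, 1874, 1711, 1917, 1660 and 1799 CPM, a log2 fold change of 10.80 (SE 0.26, adjusted *P* = 1.11e-13). The Hedgehog receptor gene *ptc* rose from 0.629, 2.49, 0.826, 0.952 and 0.674 CPM to a median of 1211 CPM (1040 to 1529), a log2 fold change of 10.27 (SE 0.23, adjusted *P* = 6e-14). The Wnt antagonist *nkd* rose from 0.21, 0.68, 1.24, 0.159 and 0.27 CPM to a median of 980.3 CPM (774 to 1106), a log2 fold change of 11.04 (SE 0.25, adjusted *P* = 6.67e-14). These 3 varied less among the 6 Stage 8 embryos than the pair-rule genes did.

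The 8 Hox genes, which give segments their identity, rose too (median 8.64). *Antp* was at 0, 0.68, 0.206, 0 and 0 CPM before ZGA and 231, 234, 187, 128, 61.4 and 272 CPM after it, a log2 fold change of 10.19 (SE 0.60, adjusted *P* = 1.23e-09). *Dfd* was at 0.21, 0, 0.206, 0 and 0 CPM and 64.2, 73.6, 70.0, 42.8, 277 and 49.4 CPM, a log2 fold change of 10.04 (SE 0.90, adjusted *P* = 1.2e-07). Replicate 5 had the highest *Dfd* and the lowest *Antp*. *abd-A* was at 0.21, 0, 0.619, 0 and 0.27 CPM and 97.1, 85.5, 116, 63.5, 2.21 and 134 CPM, a log2 fold change of 8.53 (SE 0.97, adjusted *P* = 1.57e-06). *Abd-B* was at 0, 0.227, 0, 0.159 and 0.27 CPM and 69.3, 82.5, 84.2, 80.8, 3.04 and 101 CPM, a log2 fold change of 8.79 (SE 0.91, adjusted *P* = 5.86e-07). In both abdominal genes replicate 5 was far below the other 5 embryos.

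In dorsal ectoderm and amnioserosa 14 of 15 genes rose (median 6.51), and without Stage 3 replicates 1 and 4 all 15 rose (median 8.83). *sog*, an extracellular BMP antagonist, rose from 0.419, 1.81, 1.03, 0.159 and 0 CPM to 581, 552, 866, 799.6, 993 and 457 CPM, a log2 fold change of 10.31 (SE 0.42, adjusted *P* = 2.31e-11). *ush*, a cofactor of GATA factors, rose from a median of 14.5 CPM (13 to 21.5) to 374, 373, 150.1, 269, 185 and 418 CPM, a log2 fold change of 4.33 (SE 0.28, adjusted *P* = 3.89e-09). *peb*, a zinc finger factor of the amnioserosa, rose from a median of 5.89 CPM (3.97 to 8.88) to 284, 179.5, 114, 323, 24.9 and 331 CPM, a log2 fold change of 5.14 (SE 0.58, adjusted *P* = 1.49e-06). Replicate 5 was lowest in *peb*, as it was in *pnr*, a GATA factor of the dorsal ectoderm. *pnr* had 0, 0, 0, 0 and 0.135 CPM at Stage 3 and 182, 174, 76.1, 88.1, 7.47 and 208 CPM at Stage 8, a log2 fold change of 11.03 (SE 1.12, adjusted *P* = 4.77e-07). So few Stage 3 counts leave this fitted size dependent on the prior count. *scw*, a BMP ligand of the early blastoderm, was at 13.8, 0, 10.9, 0.793 and 0 CPM at Stage 3 and 7, 3.44, 5.8, 11.3, 11.6 and 5.81 CPM at Stage 8 and was not called (adjusted *P* = 0.484). Without Stage 3 replicates 1 and 4 it rose by 4.75 on the log2 scale.

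All 11 mesoderm genes rose (median 8.78, or 8.18 with the 1 gene that had no Stage 3 count at its bound). The FGF ligand gene *ths* went from 0.419, 0.453, 0, 0 and 0 CPM to 441, 411, 469, 424, 235 and 392 CPM, a log2 fold change of 11.29 (SE 0.36, adjusted *P* = 1.83e-12). *twi*, which specifies the mesoderm, went from 0.21, 0.453, 0.619, 0 and 0.135 CPM to a median of 306 CPM (242 to 479), a log2 fold change of 10.35 (SE 0.35, adjusted *P* = 3.07e-12). *stumps*, an adaptor of the FGF receptor, went from 0.629, 1.36, 1.03, 0 and 0.809 CPM to 554, 476, 485, 509, 864 and 463 CPM, a log2 fold change of 9.67 (SE 0.34, adjusted *P* = 4.18e-12). Replicate 5 was lowest in *ths* and highest in *stumps*. *zfh1*, which already stood at a median of 122 CPM (118 to 135) before ZGA, rose less, to 346, 300.4, 352, 222, 813 and 342 CPM, a log2 fold change of 1.80 (SE 0.27, adjusted *P* = 2.24e-05). Of 7 tested gastrulation genes 5 rose and 2 fell, and with total-count scaling 3 rose. Without Stage 3 replicates 1 and 4, 3 rose, 1 fell and 3 were not called. The Toll receptor gene *Toll-6*, an input to cell intercalation, rose from 0, 1.13, 0, 0 and 0.674 CPM to a median of 704 CPM (289 to 863), a log2 fold change of 10.88 (SE 0.47, adjusted *P* = 4.24e-11), and its relative *Tollo* from a median of 281 CPM (224 to 303) to a median of 1003 CPM (868 to 1412), a log2 fold change of 2.06 (SE 0.14, adjusted *P* = 4.32e-09). The 5 endoderm genes rose (median 6.50). *srp*, a GATA factor of endoderm and blood, went from a median of 4.44 CPM (3.1 to 8.61) to a median of 405 CPM (242 to 568), a log2 fold change of 6.50 (SE 0.28, adjusted *P* = 4.04e-11). *fkh*, a gut factor, went from 0, 0.453, 0.619, 0 and 0.135 CPM to 239, 215, 236, 422, 53.9 and 197 CPM, a log2 fold change of 9.98 (SE 0.69, adjusted *P* = 6.86e-09), and replicate 5 was lowest.

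Genes of neurogenesis rose together. All 13 tested genes of neuroectoderm and neuroblasts rose (median 9.29). *SoxN*, a Sox factor of the neuroectoderm, rose from 0.21, 0.453, 0.206, 0.159 and 0 CPM to 606, 697, 656, 629, 997 and 558 CPM, a log2 fold change of 11.82 (SE 0.31, adjusted *P* = 2.03e-13). *pros*, a fate determinant of neural daughter cells, rose from 0.21, 1.13, 0.826, 0 and 0.27 CPM to 403, 259, 349.8, 232, 584 and 307 CPM, a log2 fold change of 9.72 (SE 0.42, adjusted *P* = 4.47e-11). Both were highest in replicate 5. The maternally supplied *N* and its ligand *Delta* changed by 0.87 (SE 0.12, adjusted *P* = 1.43e-05) and 2.74 (SE 0.10, adjusted *P* = 4.46e-12). All 12 Enhancer of split and Bearded genes, the Notch targets and antagonists, rose (median 8.68, or 7.80 with 1 gene at its bound). *Tom* went from 3.56, 2.04, 2.06, 0.317 and 1.35 CPM to 933, 1222, 1024, 1609, 939 and 1190 CPM, a log2 fold change of 9.47 (SE 0.31, adjusted *P* = 1.9e-12). *Ocho*, *Brd* and *E(spl)m4-BFM* rose by 6.87, 6.62 and 6.94 on the log2 scale, and at Stage 3 all 3 were highest in replicates 1 and 4.

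**Figure D3:**
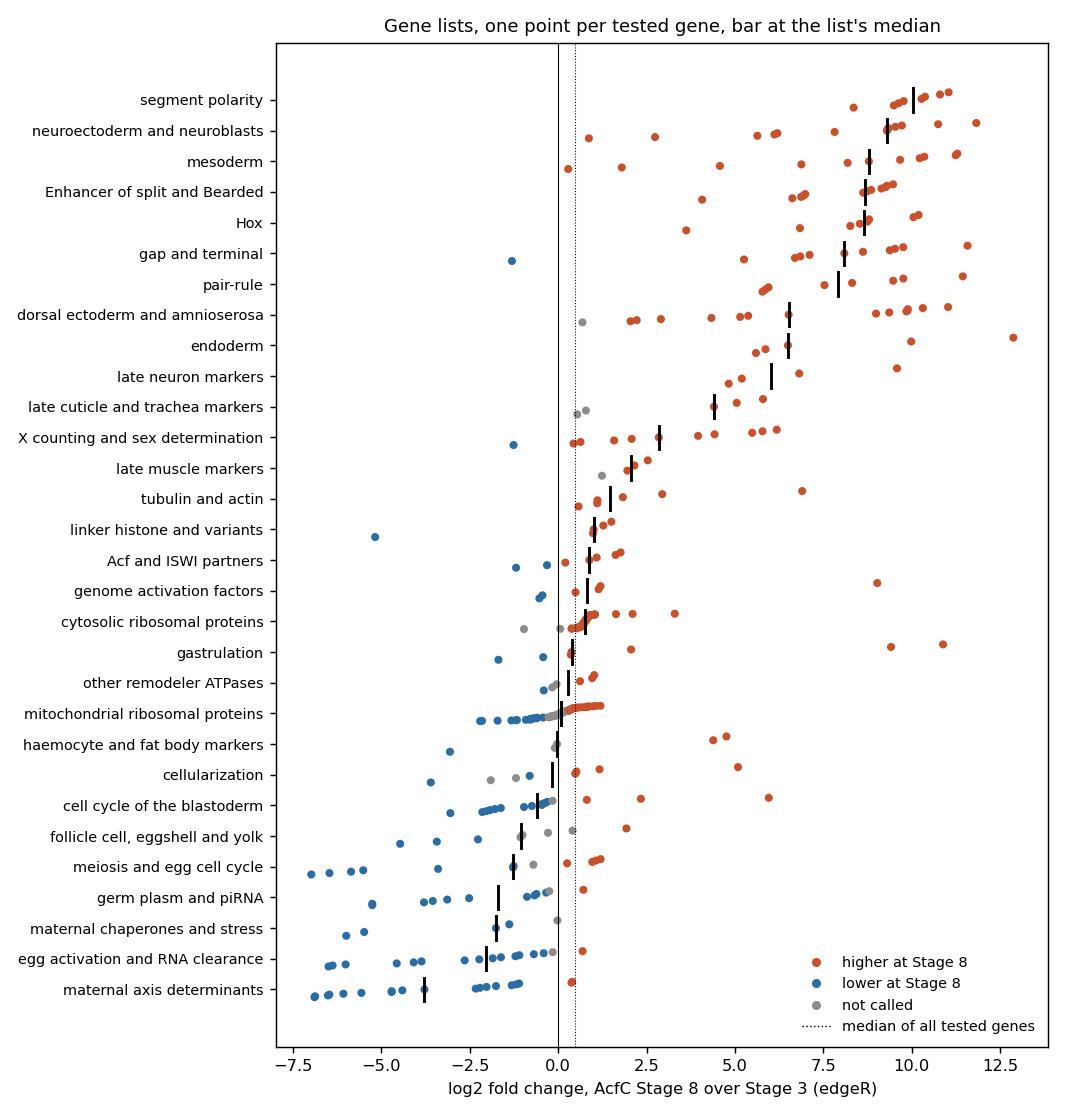
Log2 fold change (Stage 8 over Stage 3, edgeR) of each tested gene of 30 lists, ordered by their median, with a bar at the median and a dotted line at the median of all tested genes, 0.47. The maternal axis determinants lie at the lower end, at −3.79, and the segment polarity genes at the upper end, at 10.02.

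Genes of cytosolic ribosomal proteins rose, and those of mitochondrial ones went both ways. Of 78 tested genes of cytosolic ribosomal proteins 76 rose and 2 were not called, with a median of 0.76 on the log2 scale, which is 0.28 above the median of all genes. This distance was 0.38 without Stage 3 replicates 1 and 4 and 0.69 without Stage 8 replicates 4, 5 and 6. In the latter fit the median of these ribosomal genes was 0.77 and that of all genes 0.08. No gene without a Stage 3 count could be tested there, so the larger distance is not a larger rise of the ribosomal genes. *RpL41*, *RpS3A*, *RpL10* and *RpL5* took the most reads and rose by 0.76, 0.81, 0.77 and 0.58. Of 70 mitochondrial ones 21 rose, 17 fell and 32 were not called, and their median of 0.07 turned to −0.06 with total-count scaling, where 13 rose and 23 fell. Of them *mRpS9* changed by 0.55 (SE 0.10, adjusted *P* = 0.000146) and *mRpS30* by −0.43 (SE 0.12, adjusted *P* = 0.00441). The 6 tubulin and actin genes rose (median 1.47), and of the 5 chaperones 4 fell. *Hsp26*, a small heat shock protein gene with maternal RNA, went from 1103, 1783, 1124, 1618 and 1453 CPM to 14, 17.2, 14.4, 63.5, 13.8 and 9.8 CPM (adjusted *P* = 3.52e-09). *Hsp27* went from 892, 903, 929, 890.4 and 929 CPM to 9.88, 17.9, 19.5, 44.3, 11.9 and 14.5 CPM, a log2 fold change of −5.49 (SE 0.28, adjusted *P* = 2.06e-10). Replicate 4 had the most Stage 8 RNA of both.

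The partners of ACF1 were present at both stages and mostly rose. *Iswi* rose from 419, 375, 402, 415 and 382 CPM to 1111, 1105, 1109, 1145, 1106 and 1161 CPM, a log2 fold change of 1.62 (SE 0.06, adjusted *P* = 1.09e-11). The Stage 8 embryos were close together. *Chrac-14*, a histone-fold subunit of CHRAC, rose from a median of 53.4 CPM (47.1 to 60.7) to a median of 90.8 CPM (81.9 to 102), a log2 fold change of 0.88 (SE 0.10, adjusted *P* = 1.34e-06). *Chrac-16*, its partner, rose from a median of 43.4 CPM (37.6 to 48.5) to a median of 80.9 CPM (78 to 97.7), a log2 fold change of 1.09 (SE 0.09, adjusted *P* = 8.97e-08). *tou*, a relative of *Acf*, rose from 603 ± 16.2 CPM (SD, n = 5) to a median of 1891 CPM (1582 to 2115), a log2 fold change of 1.76 (SE 0.08, adjusted *P* = 1.28e-10). *E(bx)*, the large subunit of NURF, changed by −0.32 (SE 0.07, adjusted *P* = 0.000428), and by −0.02 under upper-quartile scaling, where it was not called. Of 6 other remodeler ATPases 3 rose, 1 fell and 2 were not called, and with total-count scaling 3 fell. *brm* rose by 1.02 (SE 0.08, adjusted *P* = 2.37e-08) and *Mi-2* by 0.96 (SE 0.06, adjusted *P* = 2.33e-09). Among linker histones and variants, *BigH1*, the linker histone of the early embryo, fell from 335, 331, 321, 296 and 314 CPM to 4.94, 11.7, 14.6, 6.89, 3.87 and 3.63 CPM, a log2 fold change of −5.18 (SE 0.27, adjusted *P* = 2.46e-10). The replacement histone genes *His3.3A*, *His3.3B*, *His2Av* and *His4r* rose too, the latter 3 by 1.27, 0.98 and 1.00.

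Lists of later cell types and of the ovary were read to see what else the libraries held. All 4 tested late neuron markers rose: the RNA-binding *elav* stood at a median of 404 CPM (336 to 474) at Stage 8, but the synaptic genes *brp* and *nSyb* at a median of 4.92 CPM (1.03 to 8.02) and a median of 2.71 CPM (1.05 to 5.81). Of 4 tested late muscle markers 3 rose, and the 6 listed summed to 1.43 to 15.4 CPM at Stage 3 and 8.94 to 67.2 CPM at Stage 8, with replicate 5 highest. Without Stage 8 replicates 4, 5 and 6 only 1 of the 4 rose, and their median went from 2.05 to 0.41. Of 5 tested late cuticle and trachea markers 3 rose, to sums of 3.09 to 7.26 CPM at Stage 8, and without those embryos 1 of 2. The 7 haemocyte and fat body markers summed to 273 to 317 CPM at Stage 3 and 29.1 to 91.9 CPM at Stage 8. Nearly all of the Stage 3 sum was *crq*, a scavenger receptor gene, which fell by 3.06 on the log2 scale, while the haemocyte genes *Hml* and *Pxn* rose by 4.76 and 4.38 and *NimC1* had no count in any of the 11 embryos. At Stage 8 *Hml* was at 2.46 CPM in replicate 4 and 7.21 to 11.3 CPM in the others. The median of the 5 tested markers was −0.03, and 4.64 over 4 without Stage 3 replicates 1 and 4. Of 8 tested follicle cell, eggshell and yolk genes 3 fell, 1 rose and 4 were not called, and the 11 listed summed to 3.17 to 83.2 CPM at Stage 3 and 5.14 to 21.6 CPM at Stage 8. Without Stage 3 replicates 1 and 4 the balance turned to 3 higher, 2 lower and 3 not called, and the median from −1.04 to 0.54. The part of these cells in the stage change was not tested.

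The Stage 8 embryos departed from each other in sets of genes, of which those named here were chosen after their values were seen. In any gene some embryo is lowest and another highest, and the share of such genes per embryo was not counted over all genes. Other embryos had such sets too: of 75 cytosolic ribosomal protein genes, replicate 2 lay above the others in 44 and below in 2. Replicate 1 lay below in 32 and above in 2. In replicate 5, 4 of 7 Hox genes lay below and 2 above all other Stage 8 embryos of the group. It had 1.94 CPM of *byn*, 2.21 of *abd-A*, 3.04 of *Abd-B* and 1.11 of the posterior homeobox gene *cad*, against 95.5 to 553, 63.5 to 134, 69.3 to 101 and 20.0 to 43.3 CPM in the other 5 embryos. It had 334 CPM of *gt*, 251 of *kni*, 393 of *oc*, 62.5 of *lab* and 311 of *kn*, against 64.3 to 84.4, 45.4 to 89.6, 80.3 to 149, 10.3 to 16.2 and 40.4 to 57.8 CPM. The pole cell RNAs *nanos* and *pgc* were lowest there too, and in wild type both stood apart as low in replicate 2, at 4.45 and 1.95 CPM. That wild-type embryo stood apart as low on 16 of 6361 genes and as high on 1. *byn* was among the low ones, at 52.85 CPM against 112 to 238 CPM in the rest of its group, while *abd-A* and *Abd-B* were not. Replicate 6 had the least RNA of the pair-rule genes *ftz*, *eve* and *prd*, 16.7, 8.35 and 39.6 CPM. Of 13 genes of neuroectoderm and neuroblasts 5 lay above and 4 below the other embryos in replicate 6. It had the most of the neuroblast genes *wor* and *ase*, 50.1 and 21.8 CPM, and of *E(spl)mdelta-HLH* and *E(spl)mgamma-HLH*, 65.4 and 130.4 CPM. Replicate 4 had 288 CPM of the inducible heat shock gene *Hsp68*, against 2.88 to 12.6 CPM, and the most *SNCF*, 374 CPM. A wild-type embryo, replicate 5, was likewise highest of its group in these genes, with 59.2 and 444 CPM. Because the embryos were staged by eye and handled singly, differences in age, in the amount of a tissue and in RNA per cell cannot be told apart. The labels do not give the sex of the embryos, in which replicates 2 and 3 differed from the others by *Sxl* and *msl-2*, and its part was not tested. Without replicates 4, 5 and 6 no named gene that was called and could still be tested turned its direction. Genes without a Stage 3 count, *byn* and *gcm* among them, could not be tested there.

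**Figure D4:**
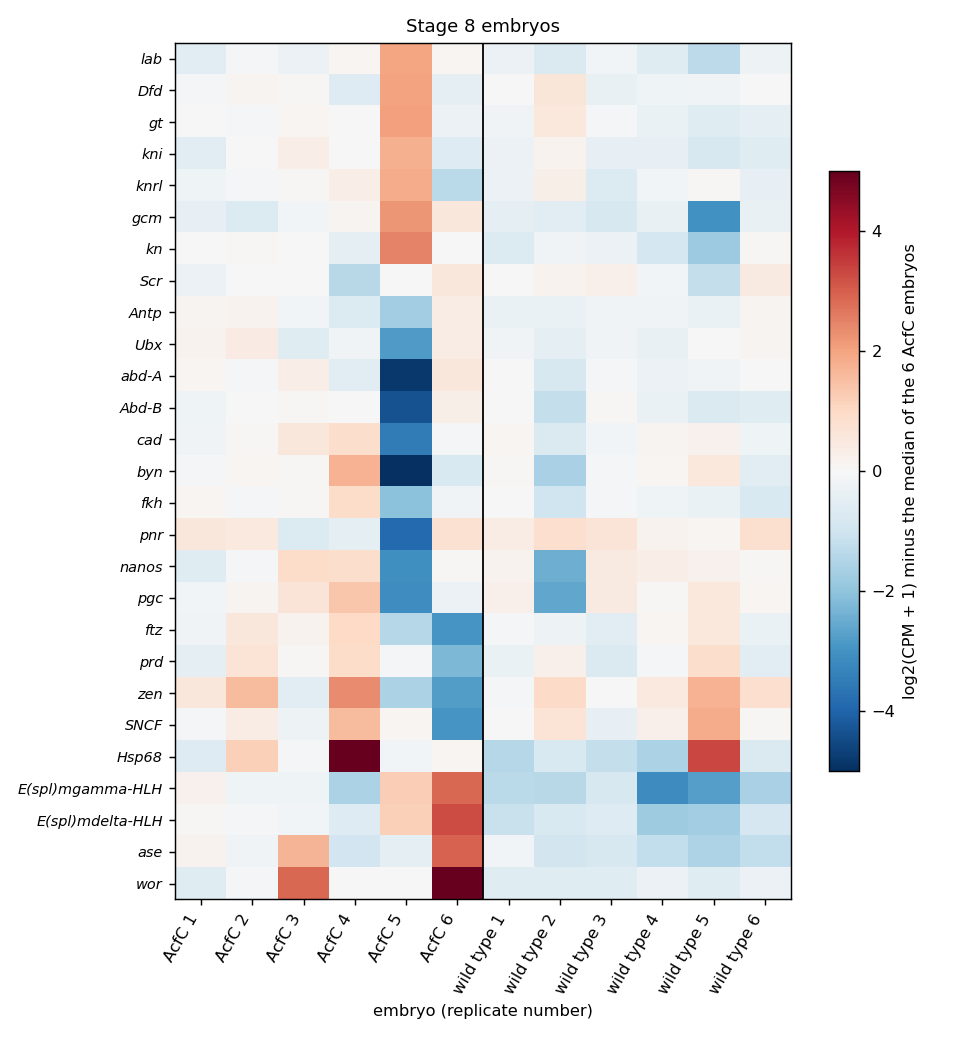
Log2(CPM + 1) of 27 genes in the 6 *AcfC* and 6 wild-type Stage 8 embryos, as the difference from the median of the 6 *AcfC* embryos (blue lower, red higher). *AcfC* replicate 5 is low in *byn* and *Abd-B* and high in *gt* and *lab*, replicate 6 is low in *ftz* and high in *wor*, and replicate 4 is high in *Hsp68*.

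Whether a stage change differed between *AcfC* and wild type was tested by the genotype-by-stage interaction, in a single edgeR fit of 23 embryos. Of 10311 genes tested, 199 were called (1.93%), with a change (Stage 8 minus Stage 3) above that of wild type in 88 and below it in 111. At an unadjusted *P* under 0.05 there were 1366, and DESeq2 called 580. Without Stage 3 replicate 4 the count was 130, and without Stage 8 replicate 3 it was 300. Leaving out Stage 3 replicates 1 and 4 and the wild-type Stage 3 embryo rich in early zygotic RNA gave 121. Of the 199, 178 also changed between the stages in *AcfC*, and 15 changed in opposite directions in the genotypes. The genotypes did not overlap at Stage 3 only in 55 of the 199 genes, at Stage 8 only in 51, at both stages in 5 and at neither in 88. The share without overlap among all 10311 tested genes was not counted, so these numbers only describe the called genes. In wild type itself 7861 of 8887 tested genes changed between the stages (88.5%). Wild type was tested with counts in at least 6 embryos and *AcfC* with counts in at least 5 of 11. The shares of the genotypes are therefore not over the same filter or number of embryos.

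The genes switched on in wild type were also read in the mutant. Of the 555 genes with 0 counts in all 6 wild-type Stage 3 embryos and counts in all 6 at Stage 8, 549 had 3 counts or fewer in every *AcfC* Stage 3 embryo, and 419 had counts in all 6 *AcfC* Stage 8 embryos. None of them was lower at Stage 8 in *AcfC*, and 518 of 519 tested were higher, a share that the filter on low counts nearly fixes. Both lists held 264 genes, which is 42.8% of the *AcfC* list and 47.6% of the wild-type list, and 615 of the 617 *AcfC* genes had no wild-type Stage 3 embryo above 3 counts. Of the 10 genes cleared to 0 in wild type, 2 were cleared to 0 in *AcfC* and 6 of 7 tested were lower.

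Some of the genes named above differed in the size of their stage change. *Ten-a* and *CG3036* rose more in *AcfC* than in wild type, by differences of 1.52 (SE 0.38, adjusted *P* = 0.0433) and 0.92 (SE 0.22, adjusted *P* = 0.0339). *jbug*, *l(3)neo38* and *kis* rose less, by −0.96 (SE 0.27, adjusted *P* = 0.0852), −1.07 (SE 0.27, adjusted *P* = 0.0446) and −0.29 (SE 0.08, adjusted *P* = 0.0706). *CG8180* fell more, by −0.92 (SE 0.21, adjusted *P* = 0.0299), and *Hsp83* fell less, by 0.79 (SE 0.22, adjusted *P* = 0.0796). Without 1 or another embryo *Ten-a*, *jbug*, *l(3)neo38*, *kis* and *Hsp83* were no longer called, with adjusted *P* up to 0.102, 0.209, 0.129, 0.133 and 0.178 in edgeR. Without Stage 8 replicates 4, 5 and 6 *CG8180* was not called either (adjusted *P* = 0.193), and with the embryo set aside included the difference of *CG3036* was −0.02.

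The largest differences among genes with a mean of at least 10 counts in an *AcfC* group and genotypes apart at a stage, in *stops*, *Cad99C*, *CG32944* and *modSP*, were towards a larger rise in *AcfC*. *stops*, which acts on phospholipase C in photoreceptors, had 0.21, 0, 0, 0.159 and 0.135 CPM in *AcfC* at Stage 3 and 3.5, 6.65, 8.09, 3.45, 5.53 and 5.81 CPM at Stage 8. In wild type it fell from a median of 2.98 CPM (1.43 to 5.6) to a median of 0.658 CPM (0 to 0.815), a difference of 7.82 (SE 0.69, adjusted *P* = 2.18e-07). *Cad99C*, a cadherin gene of follicle cell microvilli, had 0 counts in all 5 *AcfC* Stage 3 embryos and 4.12, 8.03, 13.4, 5.42, 6.08 and 28 CPM at Stage 8. Wild type had a median of 1.03 CPM (0.409 to 1.17) and then a median of 7.62 CPM (3.25 to 11.8), a difference of 5.67 (SE 1.18, adjusted *P* = 0.0165). *CG32944* had 0 counts in *AcfC* before ZGA and a median of 5.43 CPM (4.36 to 9.86) after it. Wild type had a median of 0.397 CPM (0.205 to 0.502) and then a median of 2.77 CPM (1.5 to 5), a difference of 5.08 (SE 0.81, adjusted *P* = 0.00168). *modSP*, a serine protease gene of the Toll pathway, was at 0.419, 0, 0.826, 0 and 0.27 CPM and 11.1, 32.3, 25.1, 13.3, 14.7 and 21.8 CPM in *AcfC*. Wild type had a median of 4.88 CPM (1.43 to 12.9) and then a median of 12.5 CPM (6.95 to 16.5), a difference of 5.02 (SE 0.74, adjusted *P* = 0.000372). In all 4 genes every *AcfC* Stage 3 embryo lay below every wild-type one, and for the 2 genes at 0 counts the fitted difference depends on the prior count.

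In *kek1*, *otk2*, *exp* and *Kank* every *AcfC* Stage 3 embryo lay above every wild-type one. *otk2*, a receptor tyrosine kinase-like gene, was at 68.7, 114, 95.4, 79.2 and 109.5 CPM at Stage 3 in *AcfC* and fell to 40.1, 31.2, 23, 13.3, 43.4 and 33 CPM. In wild type it rose from a median of 6.33 CPM (3.8 to 8.39) to a median of 27.8 CPM (19.3 to 43.9), a difference of −3.84 (SE 0.35, adjusted *P* = 2.18e-07). *exp* was at 30.4, 24.7, 33.6, 29 and 3.23 CPM, replicate 6 far below the rest, and then at 4.94, 9.17, 4.92, 11.8, 3.87 and 11.3 CPM. Wild type had a median of 1.73 CPM (0.669 to 2.36) and then a median of 5.12 CPM (3.34 to 8.02), a difference of −3.55 (SE 0.60, adjusted *P* = 0.00168). *kek1*, an antagonist of the EGF receptor, went from 3.98, 2.49, 13, 1.43 and 7.68 CPM to 1.85, 2.52, 1.76, 0.985, 0.83 and 0.363 CPM. Wild type had a median of 0 CPM (0 to 0.335) and then a median of 0.771 CPM (0 to 1.63), a difference of −4.95 (SE 1.08, adjusted *P* = 0.0167). *Kank*, of the KN motif family, rose in *AcfC* from 3.56, 7.02, 2.68, 2.22 and 1.21 CPM to a median of 80.6 CPM (78.8 to 116). In wild type it rose from a median of 0.347 CPM (0.131 to 0.409) to a median of 82.2 CPM (50.9 to 91.8), a difference of −3.11 (SE 0.52, adjusted *P* = 0.00167). At Stage 8 the genotypes overlapped in these 4 genes. *stops*, *Cad99C*, *CG32944*, *exp* and *Kank* overlap another annotated gene.

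**Figure D5:**
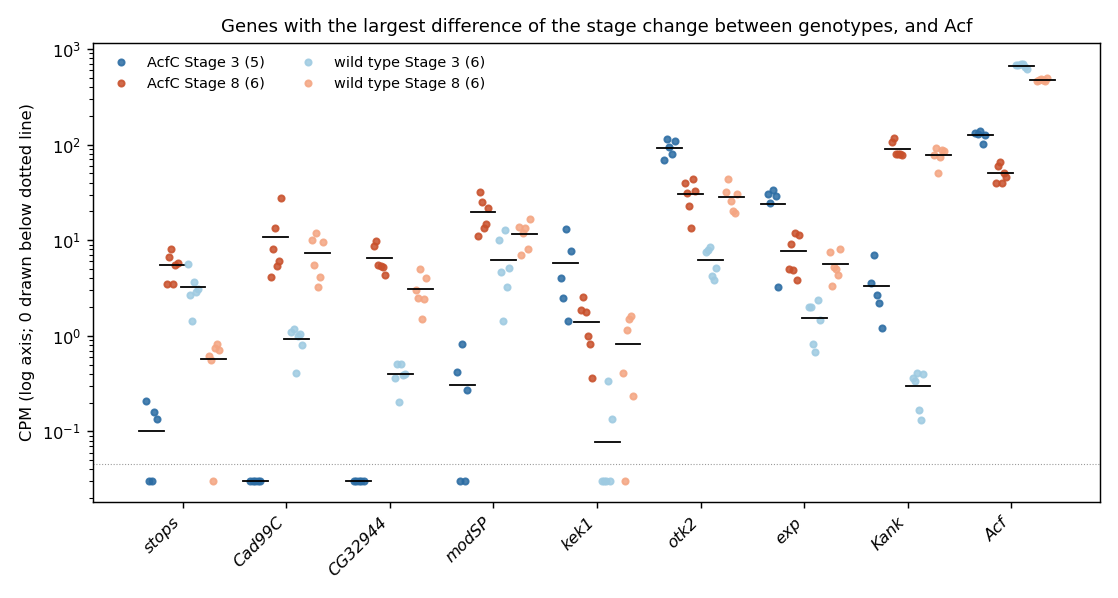
Level in CPM (log axis, 0 drawn below the dotted line) of each embryo in the 4 groups for *Acf* and for the 8 genes with the largest difference of the stage change between *AcfC* and wild type, among genes with a mean of at least 10 counts in an *AcfC* group and genotypes that do not overlap at a stage, with bars at the means. *Acf* is lower in *AcfC* at both stages, and the genotypes are apart at Stage 3 in the other genes, with *otk2* at a mean of 93.3 CPM in *AcfC* and 6.15 CPM in wild type.

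Chromosome 3R, which carries *Acf*, held 68 of the 199 genes (34.2%) and 24.2% of the genes tested. Within 1 Mb of *Acf* 10 of 91 tested genes were called (11%), within 2 Mb 15 of 201 (7.46%) and within 5 Mb 18 of 418 (4.31%), against 1.93% of all genes. The windows were chosen after the values were seen and carry no test. The nearest 10 are *Acf*, *Mccc1*, *faf*, *CG1792*, *rod*, *gammaCOP*, *PNPase*, *Gcn2*, *stops* and *cindr*. Among these, *faf* and *rod* are described after their values were seen. *faf*, a deubiquitinase gene from 31777020 to 31790681 beside *Acf*, fell from a median of 1174 CPM (1082 to 1227) to a median of 199.6 CPM (133 to 336) in *AcfC*. In wild type it fell from a median of 1165 CPM (1101 to 1239) to a median of 622 CPM (395 to 745), a difference of −1.52 (SE 0.22, adjusted *P* = 0.000367). *rod*, a kinetochore gene, fell from a median of 305 CPM (234 to 327) to a median of 153 CPM (135 to 212) in *AcfC*. In wild type it fell from a median of 330.2 CPM (244 to 363) to a median of 77.6 CPM (67.9 to 88.6), a difference of 1.15 (SE 0.14, adjusted *P* = 4.25e-05). The loss of ACF1, the deletion's effect on its neighbours and other DNA that the line carries around it cannot be told apart in a single line.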

How the data were processed

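Single hand-staged embryos were collected at 25°C, and rRNA-depleted, paired-end libraries that do not mark strand were made from each. The authors mapped reads with STAR 2.5.0a to the *Drosophila* genome (FlyBase dmel_r6.09) and deposited raw counts per gene, 1 table of 17370 genes and 24 embryos, without normalisation. Every column was assigned to an embryo by its title. Of the gene identifiers, 17155 were in the annotation used here (BDGP6), which gave symbols, biotypes and positions, and rRNA genes and other non-coding genes stayed out of library sizes and tests. Genes detected in 5 or more of the 11 embryos were tested with the quasi-likelihood test of edgeR 4.0.16 in R 4.3.3 after TMM scaling, with Benjamini-Hochberg adjustment over all genes tested and a threshold of 0.1. The study asked for 6 or more embryos, which was run as an alternative. TMM scaling moved Stage 8 by 0.13 on the log2 scale against plain CPM, in which levels are printed. The genotype-by-stage interaction was fitted on 23 embryos. *P*-values measure the spread between single embryos, whose parents and collections the labels do not give. On counts simulated for the Stage 8 against Stage 3 comparison, 200 genes were changed in random directions and the rest were left unchanged. The test recovered 121 of 200 genes changed by 1 on the log2 scale (9267 genes) with 7 false among 128 calls. It recovered 185 of 200 changed by 3 (9258 genes) with 16 false among 201. In the embryos 85.8% of the tested genes were called, so these numbers do not measure false calls in the stage comparison. A fold against a stage without counts is a bound against 3 counts per embryo, for counting error only.

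Genes were named by rule: the 12 genes with no Stage 3 count and the highest Stage 8 CPM, the 8 largest rises and falls without overlap of the stages and above a minimum count, the first 6 by level of those cleared to 0, the 5 highest at each stage, the 4 largest differences from wild type in each direction, among genes with a mean of at least 10 counts in an *AcfC* group and genotypes apart at a stage, and the 4 most abundant of each list. Members and lists were chosen with earlier results of these data known. *AGO1*, *BigH1*, *CG15611*, *CG15879*, *Cdk1*, *Chrac-14*, *Chrac-16*, *E(spl)mdelta-HLH*, *E(spl)mgamma-HLH*, *Hsp68*, *SNCF*, *ase*, *bcd*, *bnk*, *bru1*, *cad*, *eve*, *faf*, *ftz*, *gnu*, *grh*, *gt*, *kn*, *kni*, *lab*, *msl-2*, *mtrm*, *nanos*, *nullo*, *oc*, *orb*, *pgc*, *rod*, *scw*, *slam*, *trbl*, *tut*, *twe*, *vas*, *wisp*, *wor* and *zuc* fall outside this rule and were named after their values were seen. Alternatives were other scalings, filters and thresholds, DESeq2 1.42.0, a replicate block, the index set, each *AcfC* embryo left out, and the embryo set aside put back. In the labels no sequencing index recurs among embryos 1 to 3 of the groups or among embryos 4 to 6, but indices recur between these 2 sets, which are called index sets here; the labels do not name them as batches.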

Additional observations from a re-analysis of the deposited data

Results flagged for a closer look

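In 308 groups of 1 gene in 1 stage, 43 held a value far from the others of its group by Dixon's criterion. Chance flags about 1 in 20 groups, but some of these genes were named because 1 embryo stood apart in them, so that the number cannot be read against chance. Most lay in 3 Stage 8 embryos, 13 in replicate 5, 11 in replicate 6 and 7 in replicate 4. Replicate 5 was highest in *gcm* (192 CPM), *knrl* (472), *Dfd* (277), *lab* (62.5), *gt* (334), *kni* (251), *kn* (311), *oc* (393), *stumps* (864), *zfh1* (813) and *SoxN* (997) and lowest in *Abd-B* (3.04) and *ths* (235). Replicate 6 was highest in *wor* (50.1 CPM), *ase* (21.8), *E(spl)mgamma-HLH* (130) and *E(spl)mdelta-HLH* (65.4), and in *Mi-2* (2171), *stau* (640), *hb* (208), *rod* (212), *gnu* (3.99), *Pxn* (13.4) and *CG9926* (0.363). Replicate 4 was highest in *Hsp68* (288 CPM), *Hsp26* (63.5) and *Hsp27* (44.3), in *byn* (553), *bru1* (38.9) and *CycA* (1915), and lowest in *orb* (5.42). At Stage 3, replicate 3 was highest in *ci* (3.4 CPM), *ptc* (2.49), *grh* (2.04) and *CG3036* (4.08) and lowest in *Mi-2* (1031), *N* (988) and *wisp* (1409), replicate 4 was highest in *ImpL2* (8.26), *CG4998* (1.65) and *His3.3B* (731), and replicate 6 in *knrl* and *pnr* (0.135 each, which is 1 count).

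The stage change differed between *AcfC* and wild type in 18 genes named here, by the edgeR interaction test. It was larger or less negative in *AcfC* for *stops* (7.82 on the log2 scale), *Cad99C* (5.67), *CG32944* (5.08), *modSP* (5.02), *Ten-a* (1.52), *rod* (1.15), *CG3036* (0.92) and *Hsp83* (0.79). It was smaller or more negative for *kek1* (−4.95), *otk2* (−3.84), *exp* (−3.55), *Kank* (−3.11), *faf* (−1.52), *l(3)neo38* (−1.07), *jbug* (−0.96), *CG8180* (−0.92), *Acf* (−0.85) and *kis* (−0.29).

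The embryo set aside, *AcfC* Stage 3 replicate 2, held more than 3 counts of 29 of the 617 genes without a count in the other 5, the most from *ry* (39 counts).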

How the results depend on the processing

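The count of 8016 genes that differed between the stages stayed within 1.5 times under every alternative, from 6366 to 8917. The share of higher genes among those called was 61.1%, 68.2% with upper-quartile scaling and 54.6% with the edgeR default filter. It was 51.8% without Stage 8 replicates 4, 5 and 6, where no gene without a Stage 3 count could be tested. With upper-quartile scaling 9 genes called in both fits changed sign. Each embryo left out in turn gave 7569 to 7926 genes, 4429 to 4848 higher and 3044 to 3170 lower. The 617 genes switched on from 0 became 370 with the embryo set aside and 993 without Stage 8 replicates 4, 5 and 6 (636 to 791 with 1 embryo left out). The 9 genes cleared to 0 became 27 when 1 count was allowed, 14 without Stage 3 replicates 1 and 4 and 20 without Stage 8 replicates 4, 5 and 6 (9 to 13 with 1 embryo left out). The 199 genes that differed from wild type (88 higher, 111 lower) became 580 with DESeq2 (235 and 345), 339 with the embryo set aside (138 and 201), and 121 without Stage 3 replicates 1 and 4 and wild-type Stage 3 replicate 3, where 57 were lower. With 1 *AcfC* embryo left out they ran from 130 to 300, with 60 to 148 higher and 68 to 181 lower. Wild-type embryos were not left out singly. The cause of these shifts was not tested. Of single stage changes, *scw* was −0.22 within the first index set, and *nullo* (1.06) and *bnk* (2.34) turned without Stage 3 replicates 1 and 4, and the difference of *CG3036* from wild type was −0.0244 with the embryo set aside. Of the other values of named genes, 6 stage changes and 35 differences from wild type lost their call and 8 stage changes gained one.

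Replicate numbers are names only: same-numbered embryos of the stages deviated with correlations of −0.0361 to 0.0595, and none correlated best with its own number. With the replicate block 7787 genes differed between the stages (4740 higher, 3047 lower), and 158 differed from wild type (72 higher, 86 lower). Alternatives without Stage 3 replicates 1 and 4 or Stage 8 replicates 4, 5 and 6 were chosen after seeing the data.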
